A study of Mus musculus with 20 samples.

Results

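A set of 10 genes of the adipocyte was examined in RNA-seq libraries of mouse tibiae: 4 adipokines and secreted factors (Lep, Adipoq, Cfd and Retn), 3 genes of lipid storage and lipid handling (Plin1, Fabp4 and Lpl), 2 transcription factors of fat cell differentiation (Pparg and Cebpa) and the cytochrome P450 gene Cyp2e1. They were found by symbol among the 54446 genes of the deposited table, and each of the 10 symbols matched 1 Ensembl gene. Lep and Cyp2e1 were selected on their measured levels in unloaded tibiae, which were higher under dexamethasone (DEX), a synthetic glucocorticoid. The other 8 complete a list of well-known fat cell genes. That comparison therefore serves as a description only, and it carries no p-value for any of the 10 genes.

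The mice were 3-month-old male C57BL/6J animals that received subcutaneous DEX at 1 mg/kg or water for 5 days. Axial load with a peak of -13 N was applied to the left tibia in sessions of 40 cycles, on days 1 and 3 by the sample labels, and the right tibia was not loaded. The study's own account of the experiment gives more sessions than the labels do and places harvest within hours of the last of them. This gave 4 groups of 5 libraries each: unloaded vehicle, loaded vehicle, unloaded DEX and loaded DEX. Frozen bone was pulverized, and the sample labels do not say whether marrow or muscle was removed. The study describes the material as cortical bone with its periosteum. The libraries held 4641440 to 13032000 counts. In tissue of this kind, fewer cells of a type and less RNA per cell cannot be told apart. One unloaded DEX library, replicate 4, was left out of the fits because the study removed a DEX sample with that number and shows fewer unloaded than loaded DEX values. Which limb was meant is not stated, so the values of Lep and Cyp2e1 with it kept and with loaded DEX replicate 4 left out in its place are also given. The levels of both libraries are shown. In each vehicle group, 1 library could not be matched to a replicate number and is called unnumbered. The unloaded right tibia of each mouse was the control of its loaded left tibia, but no source ties the libraries of the limbs to each other by mouse. The p-values treat them as separate samples.

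Adipocytes of the bone marrow store triglyceride in a large lipid droplet and secrete hormones into the marrow and the circulation. Their differentiation from marrow stromal precursors depends on the nuclear receptor PPARγ, encoded by Pparg, and on C/EBPα, encoded by Cebpa. Glucocorticoids are known to favor the formation of marrow fat at the expense of bone-forming cells and to raise leptin secretion from fat cells. Several of the 10 genes are also used elsewhere: Lpl in muscle, Fabp4 in small vessel endothelium and macrophages, Cebpa in granulocyte precursors, and Cyp2e1 most strongly in liver.

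The promoters of Lep and Cyp2e1 are shown because these 2 genes had the largest differences with DEX among the 10. That of Adipoq is shown because its counts are the reference for ratios given below. The sequences are the RefSeq bases before each gene's start on GRCm38.p6, plus strand, 5′ to 3′. Capitals mark matches to 5 short motifs searched on both strands, none of which overlap within these windows: the TATA box as TATAAA, the NF-Y element as CCAAT, the glucocorticoid receptor pattern ACANNNTGT, the C/EBP pattern TTGCNNAA and a nuclear receptor element as AGGTCA. The stretch shown for Cyp2e1 ends before the earlier start that GENCODE gives for that gene. The positions shown are chr6:29059971-29060219 for Lep, chr7:140763569-140763738 for Cyp2e1 and chr16:23146286-23146535 for Adipoq.
Lep: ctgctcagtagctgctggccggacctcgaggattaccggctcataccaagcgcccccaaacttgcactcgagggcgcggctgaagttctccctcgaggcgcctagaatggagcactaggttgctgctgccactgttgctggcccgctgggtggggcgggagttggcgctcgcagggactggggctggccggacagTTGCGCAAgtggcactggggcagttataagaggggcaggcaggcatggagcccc
Cyp2e1: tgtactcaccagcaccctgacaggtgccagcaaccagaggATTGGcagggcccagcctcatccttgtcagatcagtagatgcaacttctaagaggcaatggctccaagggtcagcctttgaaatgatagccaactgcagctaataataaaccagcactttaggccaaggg
Adipoq: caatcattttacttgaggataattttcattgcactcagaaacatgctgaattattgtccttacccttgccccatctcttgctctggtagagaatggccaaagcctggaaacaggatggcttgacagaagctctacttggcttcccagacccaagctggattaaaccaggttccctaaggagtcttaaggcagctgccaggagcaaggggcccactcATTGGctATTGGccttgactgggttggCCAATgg
In the 250 bases before the start, the Lep window held 1 TTGCNNAA match, 55 bases before the start, and none of the other 4 patterns. Of 32851 RefSeq promoter windows of that length, 9.56% held this pattern. The Cyp2e1 window held 1 TATAAA match, 31 bases before the start, and 2 CCAAT matches, of which the stretch shown holds the farther one. The Adipoq window held 3 CCAAT matches. TATAAA was present in 12.4% of all windows, CCAAT in 33.8%, AGGTCA in 14% and ACANNNTGT in 5.84%. The patterns also occurred in the windows of Plin1 (TTGCNNAA), Cebpa (TATAAA) and Pparg (all but ACANNNTGT over its 3 starts), and not in those of Cfd and Retn. None of the 10 windows available for 8 of the genes held ACANNNTGT. Fabp4 and Lpl had no entry. These matches describe letters only.

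Lep encodes leptin, the hormone that reports fat stores to the brain, and lies on chromosome 6 from 29060220 to 29073877 on the plus strand (GRCm38). Levels are given as CPM, the counts divided by library size after TMM scaling (trimmed mean of M values) over all 20 libraries. In unloaded vehicle tibiae, Lep was at 3.18, 2.86, 2.30 and 1.42 CPM in replicates 1, 2, 4 and 5 and at 2.20 CPM in the unnumbered library. In unloaded DEX tibiae it was at 10.4, 8.56, 13.3, 15.6 and 19.5 CPM in replicates 1 to 5. Every unloaded DEX library was thus above every unloaded vehicle library, and the fitted log2 fold change was 2.46 (SE 0.30) without replicate 4. Such a separation, in the higher direction and with replicate 4 left out, was seen for 4.45% of the genes tested. This is the difference for which the gene was noted, and 2.86% of the 19738 genes tested in unloaded tibiae were called higher with DEX at an adjusted p below 0.05. That share was unsteady: it was 0.236% without unloaded DEX replicate 3, 0.956% without unloaded vehicle replicate 5 and 6.08% with unloaded DEX replicate 4 kept. With that library kept, the Lep difference was 2.50.

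In loaded vehicle tibiae, Lep was at 9.39, 1.47, 1.13 and 1.03 CPM in replicates 1, 2, 4 and 5 and at 2.67 CPM in the unnumbered library. In loaded DEX tibiae it was at 25.2, 13.03, 5.34, 16.2 and 2.60 CPM in replicates 1 to 5. The groups overlapped, because loaded vehicle replicate 1 was above loaded DEX replicates 3 and 5. Lep rose with DEX in loaded tibiae by 1.99 on the log2 scale (SE 0.66, 2 SE interval 0.67 to 3.30, 3.96-fold), with an adjusted p of 0.0473 by edgeR's quasi-likelihood test. The call was a narrow one: it held in 3 of the 10 fits that left out 1 library and was lost without loaded DEX replicate 1, 2 or 4 or without loaded vehicle replicate 2, 4, 5 or the unnumbered library, with adjusted p-values of 0.0128 to 0.120 and log2 fold changes of 1.57 to 2.92 over the 10 fits. It was also lost with the level of background reads, described further on, as a covariate (1.88, adjusted p = 0.584). That level did not overlap between the loaded vehicle and loaded DEX groups, so this fit cannot reliably tell background and DEX apart.

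Cyp2e1 encodes a cytochrome P450 that oxidizes ethanol and other small molecules, and lies on chromosome 7 from 140763739 to 140774987 on the plus strand. In unloaded vehicle tibiae it was at 2.25, 2.97, 4.19 and 5.15 CPM in replicates 1, 2, 4 and 5 and at 2.86 CPM in the unnumbered library. In unloaded DEX tibiae it was at 15.6, 12.2, 21.1, 34.5 and 45.7 CPM in replicates 1 to 5. The unloaded groups did not overlap, and the fitted log2 fold change, again a description, was 2.80 (SE 0.39), and 2.90 with replicate 4 kept.

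In loaded vehicle tibiae, Cyp2e1 was at 0.638, 0.391, 0.501 and 4.27 CPM in replicates 1, 2, 4 and 5 and at 0.259 CPM in the unnumbered library. In these libraries the gene had 3 to 7 counts, except for 33 in replicate 5. In loaded DEX tibiae it was at 27.2, 14.3, 5.13, 11.7 and 4.98 CPM in replicates 1 to 5. Each loaded DEX library was above each loaded vehicle library, which was so, in the higher direction, for 7.66% of all genes tested. Cyp2e1 rose with DEX in loaded tibiae by 3.49 on the log2 scale (SE 0.71, 2 SE interval 2.06 to 4.92, 11.2-fold), with an adjusted p of 0.00844 by edgeR. The adjusted p stayed between 0.000996 and 0.0239 in the 10 fits that left out 1 library, and the log2 fold change between 2.98 and 4.79. The call was lost with the level of background reads as a covariate (2.21, adjusted p = 0.329), a level that separated the same groups.

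**Figure D1:**
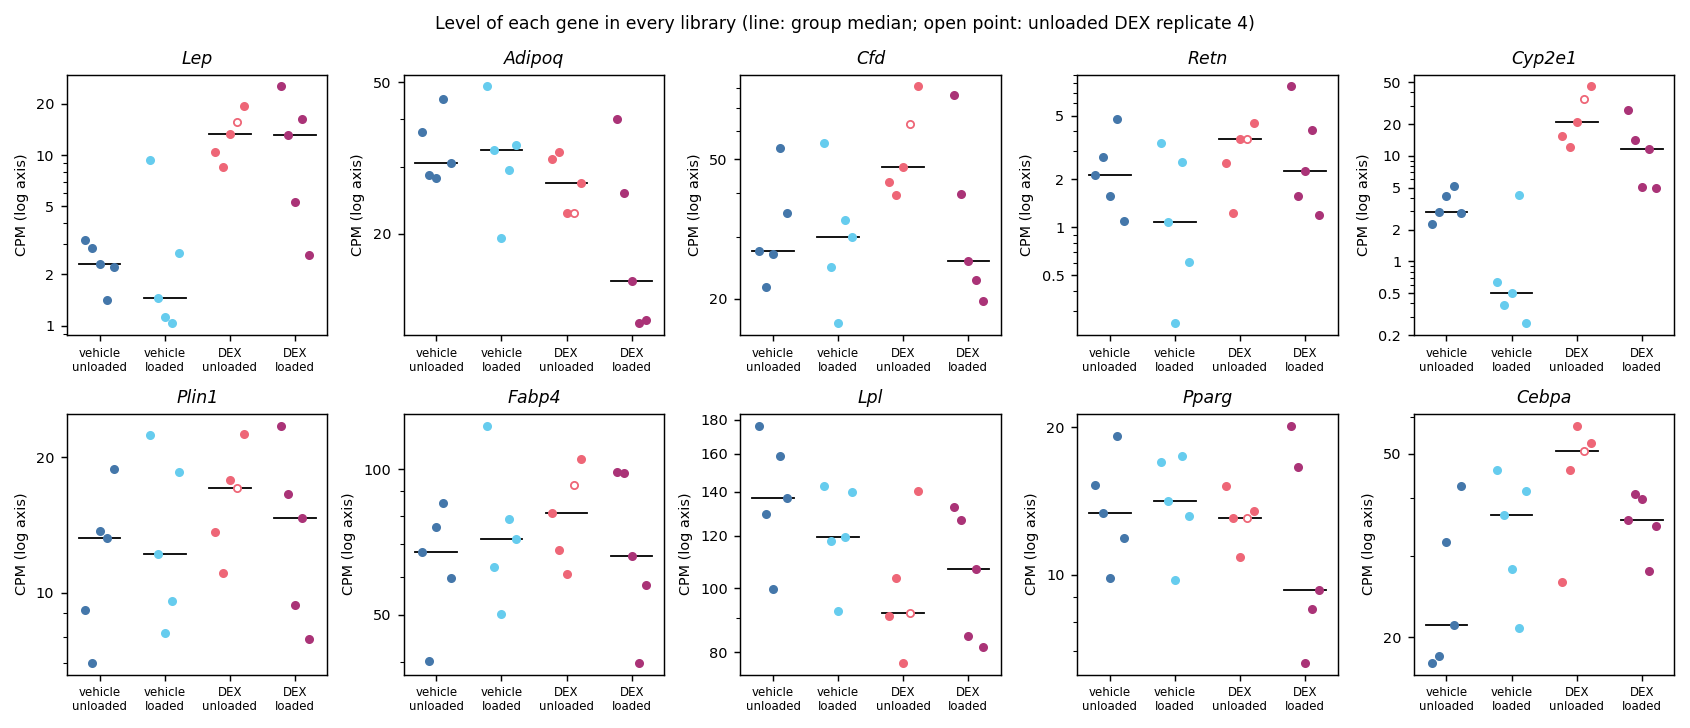
Level of each of the 10 genes in CPM (log axes) in every library, by group. Points are libraries, lines are group medians and the open point is unloaded DEX replicate 4. All unloaded DEX points of Lep (8.56 to 19.5 CPM) and Cyp2e1 (12.2 to 45.7 CPM) lie above the unloaded vehicle points, while the DEX and vehicle points of the other 8 genes overlap in both limbs.

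Adipoq encodes adiponectin, an insulin-sensitizing hormone, and lies on chromosome 16 from 23146536 to 23158028 on the plus strand. It was at 27.96, 30.7 and 45.2 CPM (lowest, median and highest) in unloaded vehicle, 19.5, 33.1 and 48.8 CPM in loaded vehicle, 22.7, 27.3 and 32.9 CPM in unloaded DEX and 11.7, 15.1 and 40.0 CPM in loaded DEX libraries. The median was lowest in the loaded DEX group, but its replicate 1 was at 40.0 CPM, within the vehicle range. The log2 fold change with DEX was -0.63 (SE 0.33, adjusted p = 0.175, edgeR) in loaded tibiae and -0.23 (SE 0.17) in unloaded tibiae. Without loaded DEX replicate 1, the loaded difference was -0.996 with an adjusted p of 0.0347, and without a filter on low counts it was -0.82 with an adjusted p of 0.0349. It passed the threshold in 1 of the 10 fits that left out 1 library, over which it ranged from -0.996 to -0.49. With background reads as a covariate it was -0.11 (adjusted p = 0.962, edgeR).

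Cfd encodes adipsin (complement factor D), a serine protease of the alternative complement pathway that fat cells secrete. Its level was 21.6 to 53.8 CPM in unloaded vehicle, 17.0 to 55.6 CPM in loaded vehicle, 39.7 to 80.6 CPM in unloaded DEX and 19.7 to 76.1 CPM in loaded DEX libraries. The median of the unloaded DEX group, 47.6 CPM, lay above the other medians of 25.6 to 30.1 CPM, with overlap. The log2 fold change with DEX was 0.71 (SE 0.28) in unloaded tibiae and 0.22 (SE 0.37, adjusted p = 0.682, edgeR) in loaded tibiae. In the 9 fits that left out 1 library, the unloaded difference ranged from 0.38 (without unloaded DEX replicate 5) to 0.94. Retn, which encodes resistin, was the least abundant of the 10 genes in summed counts, at 455 over the 20 libraries. Its level was 0.250 to 3.37 CPM in loaded vehicle and 1.19 to 7.65 CPM in loaded DEX libraries, and the log2 fold change of 1.10 (SE 0.67, adjusted p = 0.241) did not pass the threshold.

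Plin1 encodes perilipin 1, which coats the lipid droplet and controls access of lipases to it. Its group medians were 13.3 CPM in unloaded vehicle, 12.2 CPM in loaded vehicle, 17.1 CPM in unloaded DEX and 14.6 CPM in loaded DEX libraries. All 4 ranges overlapped, and the log2 fold change with DEX in loaded tibiae was 0.05 (SE 0.32, 2 SE interval -0.59 to 0.69, adjusted p = 0.918). Fabp4, the fatty acid-binding protein of fat cells, had medians of 67.6, 71.7, 81.2 and 66.1 CPM in the same order and a log2 fold change of -0.06 (SE 0.27, 2 SE interval -0.59 to 0.47, adjusted p = 0.885). Lpl, the lipase that releases fatty acids from circulating triglyceride, had the highest group medians in CPM of the 10 genes, at 91.6 to 137 CPM, with libraries from 77.1 to 176 CPM. In unloaded DEX replicate 4, Fabp4 was slightly higher (93.0 CPM) than Lpl (91.6 CPM). Per kilobase of exon, its group medians of 8.74 to 13.1 CPM were below those of Cfd, at 27.8 to 51.6 CPM. Its log2 fold change with DEX was -0.16 (SE 0.17, 2 SE interval -0.50 to 0.18, adjusted p = 0.521) in loaded tibiae and -0.42 (SE 0.21) in unloaded tibiae.

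The transcription factor genes did not pass the threshold either. Pparg had group medians of 13.4, 14.2, 13.1 and 9.32 CPM in unloaded vehicle, loaded vehicle, unloaded DEX and loaded DEX libraries. Its log2 fold change with DEX was -0.06 (SE 0.19) in unloaded tibiae and -0.19 (SE 0.28, 2 SE interval -0.75 to 0.37, adjusted p = 0.644, edgeR) in loaded tibiae. Cebpa was at 17.6 to 42.6 CPM in unloaded vehicle and 26.3 to 57.4 CPM in unloaded DEX libraries, a fitted difference of 0.82 (SE 0.29) on the log2 scale. In loaded tibiae the ranges were 20.95 to 45.9 CPM with vehicle and 27.9 to 41.0 CPM with DEX, and the difference was 0.09 (SE 0.18, adjusted p = 0.741). With background reads as a covariate the loaded difference was 0.79 and still did not pass the threshold. Summed CPM of 5 granulocyte progenitor genes (Mpo, Elane, Prtn3, Ctsg and Ms4a3), a lineage that also uses Cebpa, was 1059 to 1520 in unloaded vehicle, 1925 to 3361 in unloaded DEX, 1034 to 1407 in loaded vehicle and 1383 to 3324 in loaded DEX libraries. The part of these cells in the Cebpa levels was not tested.

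In all, 2 of the 10 genes, Lep and Cyp2e1, rose with DEX in loaded tibiae and none fell, whereas 12.9% of the 19780 genes tested rose, 8.35% fell and 21.3% were called in either direction. When 1 library was left out, the share that rose ranged from 7.53% (without the unnumbered loaded vehicle library) to 17.3% (without loaded DEX replicate 2) and the share that fell from 5.21% to 10.8%, without the same libraries. Without loaded DEX replicate 4 these shares were 7.94% and 7.21%. With background reads as a covariate, neither gene was called, in a fit that cannot reliably tell background and DEX apart. Among genes of the middle tertile of expression, which holds both, 8.22% rose. The median log2 fold change of the 10 genes was 0.07, beside 0.00 for all genes tested. In unloaded tibiae the median of the 10 was 0.36 beside 0.03 for all 19738 genes, 6.84% of which were called in either direction, and the median was 0.38 with replicate 4 kept, when 15.2% were called. The loaded and unloaded limbs come from the same mice, so the loaded comparison is not fully independent of the one by which Lep and Cyp2e1 were noted.

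**Figure D2:**
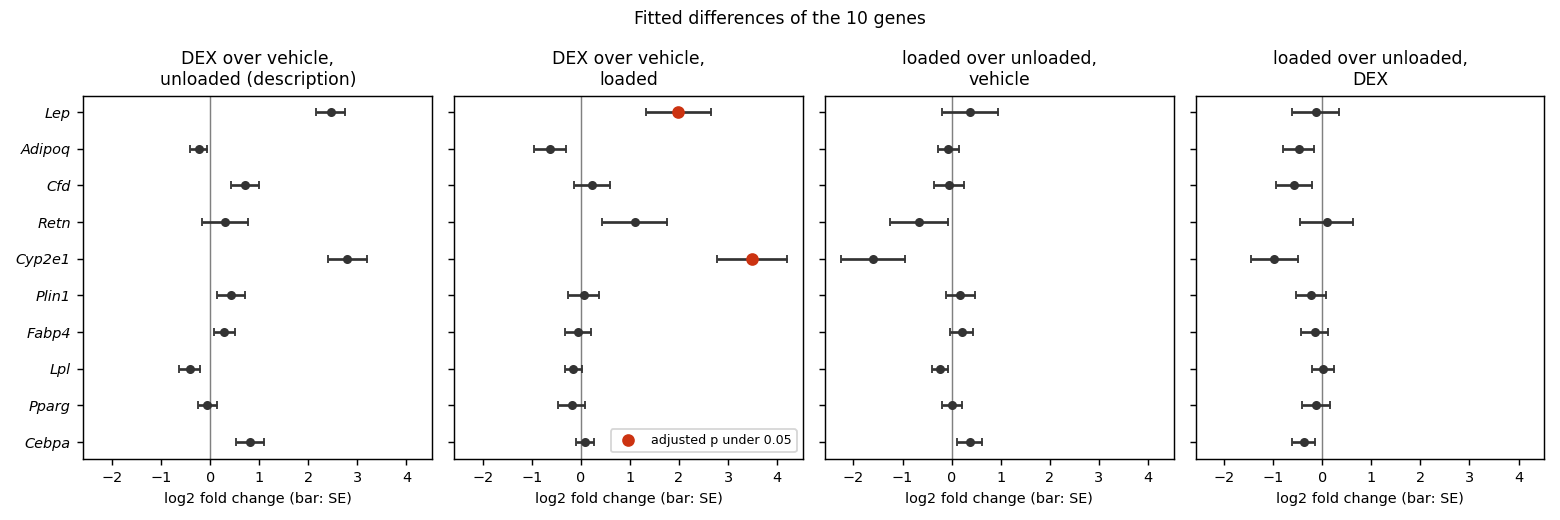
Fitted log2 fold changes of the 10 genes (points) with their SE (bars) in 4 comparisons. Red points mark an adjusted p below 0.05, which in loaded tibiae were Lep (1.99) and Cyp2e1 (3.49). The left panel is the comparison by which these 2 genes were noted and has no test.

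Counts of each gene were also set against Adipoq counts in the same library, a ratio that library scaling does not change. Adipoq itself had lower medians with DEX, which raises every such ratio. Which cells the Adipoq counts came from was not tested. The Lep to Adipoq count ratio was 0.0313 to 0.100 in unloaded vehicle and 0.0352 to 0.193 in loaded vehicle libraries, and 0.260 to 0.715 in unloaded DEX and 0.218 to 1.39 in loaded DEX libraries. No DEX library fell within the vehicle range, in either limb. The Cyp2e1 to Adipoq ratio had medians of 0.104 and 0.0131 in unloaded and loaded vehicle libraries and of 0.929 and 0.559 in unloaded and loaded DEX libraries, also without overlap between treatments. The Cfd to Adipoq ratio was likewise higher in all DEX libraries, at 0.736 to 1.19 with vehicle and 1.21 to 2.96 with DEX in unloaded tibiae and 0.746 to 1.14 and 1.55 to 1.95 in loaded tibiae. The Plin1 to Adipoq ratio overlapped in unloaded tibiae (0.244 to 0.613 with vehicle and 0.336 to 0.825 with DEX) and did not in loaded tibiae (0.326 to 0.542 and 0.587 to 1.26). Of the 9 ratios, 3 were thus higher without overlap in unloaded and 4 in loaded tibiae. Over all genes tested, the ratio to Adipoq was higher without overlap for 5.23% in unloaded and 6.08% in loaded tibiae. Pparg had median ratios of 0.411, 0.428, 0.485 and 0.648 in unloaded vehicle, loaded vehicle, unloaded DEX and loaded DEX libraries. These ratios are descriptions, and the unloaded ones rest on the values by which Lep and Cyp2e1 were noted.

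**Figure D3:**
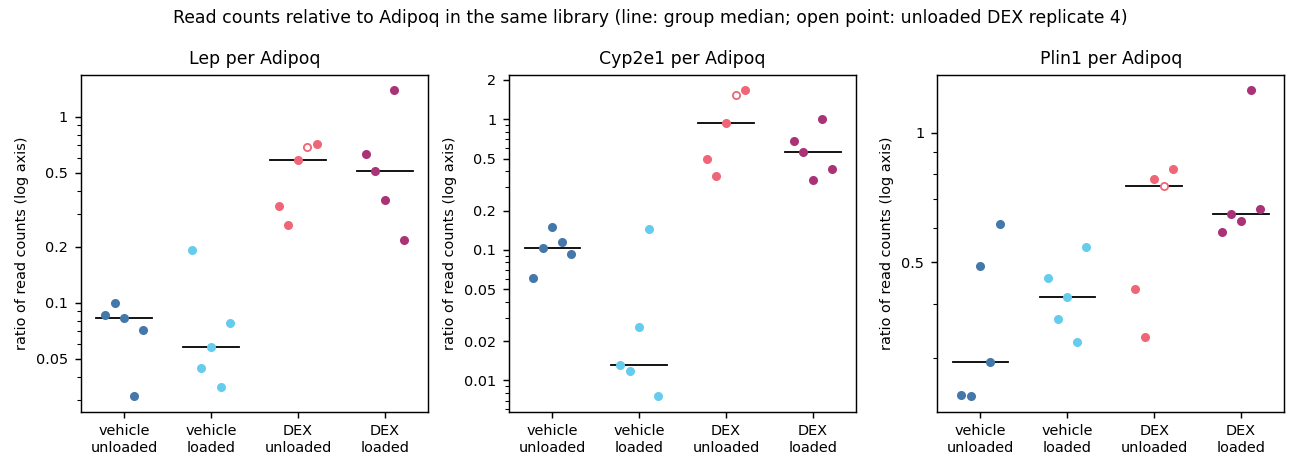
Read counts of Lep, Cyp2e1 and Plin1 divided by those of Adipoq in the same library (log axes), by group. Points are libraries, lines are group medians and the open point is unloaded DEX replicate 4. The DEX libraries lie above all vehicle libraries for Lep (0.218 or more against 0.193 or less) and for Cyp2e1 (0.340 or more against 0.150 or less).

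Loading was compared next, which addresses the study's question of how the tibia responds to load with and without glucocorticoid. None of the 8 genes other than Lep and Cyp2e1 was called with loading in vehicle-treated mice, where 0% of 17982 genes were called by edgeR and 9.86% had an unadjusted p below 0.05. Their unadjusted p-values ran from 0.169 to 0.955, and their log2 fold changes from -0.66 (Retn, SE 0.60) to 0.37 (Cebpa, SE 0.25). Lep and Cyp2e1 are described without a test in every comparison that uses unloaded libraries, because their unloaded levels were used to note them. Cyp2e1 had the largest difference of the 10 genes, a fitted -1.61 on the log2 scale (SE 0.65). Of the loaded vehicle libraries, 4 (0.259 to 0.638 CPM) were below all unloaded vehicle libraries (2.25 to 5.15 CPM), and replicate 5, at 4.27 CPM, lay within the unloaded range. Without that library the log2 fold change was -2.97. The Lep difference was 0.38 (SE 0.56), and it was -0.60 without loaded vehicle replicate 1, the library at 9.39 CPM.

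With DEX, loading gave no call among the same 8 genes. Of all 22541 genes, 0% were called and 4.25% had an unadjusted p below 0.05 by edgeR. Without unloaded DEX replicate 5, 39 genes were called, none of them among the 8. The log2 fold changes of the 8 genes ran from -0.57 (Cfd, SE 0.36) to 0.09 (Retn, SE 0.54). Lep was at a median of 13.3 CPM in unloaded and 13.03 CPM in loaded DEX libraries, a fitted difference of -0.13 (SE 0.48), and -0.28 with loaded in place of unloaded DEX replicate 4 left out. Cyp2e1 was at medians of 21.1 and 11.7 CPM, a difference of -0.98 (SE 0.48), and -1.06 with that exchange, with overlapping groups. The difference between the responses to loading in DEX-treated and vehicle-treated mice, tested as an interaction over 23653 genes, was called for none of the 8 genes and for 0% of all genes, while 12.1% had an unadjusted p below 0.05. Without unloaded DEX replicate 5, 54 genes were called, again none of the 8. The interaction of Adipoq was -0.43 (SE 0.41, adjusted p = 0.582) and that of Cebpa was -0.76 (SE 0.37, adjusted p = 0.414). With background reads as a covariate, the interaction of Cebpa was -0.0842 and its difference with loading in vehicle-treated mice 0.0159.

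For Cyp2e1, the order of the group medians was unloaded DEX, loaded DEX, unloaded vehicle and loaded vehicle (21.1, 11.7, 2.97 and 0.501 CPM). For Lep, both DEX medians (13.3 CPM unloaded and 13.03 CPM loaded) were above both vehicle medians (2.30 and 1.47 CPM). The order of its DEX medians turned without unloaded DEX replicate 4, which left an unloaded median of 11.9 CPM. The DEX groups overlapped each other for both genes, as did the vehicle groups. Per kilobase of exon, Lep had group medians of 0.437 to 3.98 CPM and Cyp2e1 of 0.232 to 9.79 CPM, whereas Adipoq had medians of 10.9 to 24.0 CPM and Cfd of 27.8 to 51.6 CPM. On this scale the levels of Lep and Cyp2e1 stayed below those of Adipoq in median in all 4 groups.

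Within groups, several genes moved together from library to library. Loaded DEX replicate 1 had the highest level of its group for 9 of the 10 genes, with 40.0 CPM for Adipoq, 76.1 CPM for Cfd and 20.1 CPM for Pparg. Loaded vehicle replicate 1 had the highest level of its group for 8 genes, among them Lep, Adipoq and Plin1 (22.4 CPM). Over the 20 libraries, Pearson's r of log2 CPM with Adipoq was 0.82 for Pparg, 0.69 for Lpl, 0.56 for Fabp4, 0.51 for Cfd, 0.37 for Plin1, 0.18 for Retn, -0.08 for Lep, -0.10 for Cebpa and -0.19 for Cyp2e1. The genes outside the 10 with the highest r with Adipoq were Cc2d2a (0.91), Plxdc2 (0.89), Ldb1 (0.87), Zfp948 (0.87), Chrdl1 (0.87), Ak3 (0.87), Ctnnd1 (0.86) and Zeb2 (0.86). Those with the highest r with Cyp2e1 were Ces1d (0.89), a carboxylesterase, Pon1 (0.89), paraoxonase 1, Inmt (0.86), a methyltransferase, Adcyap1r1 (0.85), a peptide hormone receptor, and Gsta3 (0.84), a glutathione S-transferase. These values pool both treatments, share each library's depth and cell makeup, and are descriptions.

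Other genes of fat metabolism were read from the same fit in loaded tibiae, in which 12.9% of all genes rose and 8.35% fell. No gene of the lists below was called with background reads as a covariate, in a fit that cannot reliably tell background and DEX apart. Of 13 genes of the lipid droplet and of lipolysis, 6 rose with DEX and none fell: Pnpla2 (adipose triglyceride lipase, 0.61 on the log2 scale, SE 0.15, adjusted p = 0.0147), its coactivator Abhd5 (0.63, adjusted p = 0.0112), hormone-sensitive lipase Lipe (0.52, adjusted p = 0.0407), the droplet proteins Plin4 (1.10, adjusted p = 0.0245) and Cidec (1.33, adjusted p = 0.0467), and Dgat2 (1.00, adjusted p = 0.0103), which makes the last step of triglyceride synthesis. The median of the 13 was 0.61, beside 0.00 for all genes. The rising genes thus include both lipases and genes of lipid storage. Monoacylglycerol lipase, Mgll, was at -0.40 (SE 0.16, adjusted p = 0.0988). The count of 6 ranged from 3 to 6 in the fits that left out 1 library, with 3 without loaded vehicle replicate 2 and 4 without replicate 4 or the unnumbered library of that group. In the higher direction, the groups did not overlap for Abhd5 and Dgat2, and for 7.66% of all genes. In unloaded tibiae 9 of the 13 had a higher fitted level with DEX, with a median of 0.33.

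Of 16 genes of fatty acid uptake and synthesis, 2 rose (Agpat2, 0.57, adjusted p = 0.0155, and the glucose transporter gene Slc2a4, 0.85, adjusted p = 0.0312) and 1 fell (Fabp5, -0.65, adjusted p = 0.0121), beside the 12.9% and 8.35% of all genes. Slc2a4 went the other way in unloaded tibiae, with a fitted -0.94 (SE 0.43) and means of 50.3 ± 27.6 CPM (SD, n = 5) with vehicle and 23.6 ± 12.7 CPM (SD, n = 5) with DEX. The 4 most abundant, Scd1 (-0.02), Fasn (-0.01), Acsl1 (0.30) and Acly (-0.16), did not pass the threshold, and the median was -0.01. The rising count was 0 without the unnumbered loaded vehicle library and 1 without loaded DEX replicate 3 or loaded vehicle replicate 2 or 4. Of 11 further fat cell genes tested from a list of 12, 4 rose: Orm1 (2.42, SE 0.26, adjusted p = 0.000344), an acute-phase protein, the β3-adrenergic receptor gene Adrb3 (2.13, SE 0.60, adjusted p = 0.0259), the activin receptor gene Acvr1c (1.61, SE 0.40, adjusted p = 0.0169) and haptoglobin, Hp (1.00, SE 0.23, adjusted p = 0.0130). Car3 (0.02, adjusted p = 0.962), carbonic anhydrase 3, and Cdo1 (-0.55, adjusted p = 0.228) did not pass the threshold. In unloaded tibiae, Car3, which skeletal muscle also expresses strongly, was at 225 to 406 CPM with vehicle and 101 to 189 CPM with DEX. Hp and Orm1 are also genes of the acute phase in liver and of neutrophils. Orm1 was at 1.91 to 2.59 CPM in loaded vehicle and 7.54 to 17.9 CPM in loaded DEX libraries. The groups did not overlap, which 7.66% of all genes shared in the higher direction.

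Of 12 regulators of fat cell differentiation, 3 rose and 3 fell, beside 12.9% and 8.35% of all genes. Klf15 (1.38, adjusted p = 0.00932), Klf5 (0.97, adjusted p = 0.00595) and Cebpd (0.55, adjusted p = 0.0104), which act in early or glucocorticoid-driven adipogenesis, rose without overlap between groups. In the higher direction, the groups did not overlap for 7.66% of all genes. Ebf1 (-0.96, adjusted p = 0.0175) and Zfp423 (-0.66, adjusted p = 0.0262) fell, as did Wnt10b (-0.94, adjusted p = 0.0308), a Wnt ligand that restrains adipogenesis. Which cells carried these differences was not tested. Cebpb (0.24) and Rxra (-0.14), which encodes the partner of PPARγ, did not pass the threshold. The falling count was 1 without loaded DEX replicate 1 or 4 or the unnumbered loaded vehicle library. Of 8 partners and receptors of the 10 genes, only Angptl4, a secreted inhibitor of lipoprotein lipase, changed: it fell by 1.23 on the log2 scale (SE 0.30, adjusted p = 0.0165), without overlap, which 8.85% of all genes shared in the lower direction. The leptin receptor gene Lepr was at -0.50 (SE 0.21, adjusted p = 0.100), and the adiponectin receptor genes Adipor1 and Adipor2 were at 0.14 and 0.15 (adjusted p = 0.417 and 0.465). Complement C3, a component of the pathway in which adipsin acts, was at 0.57 (adjusted p = 0.131).

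Of 8 genes of brown and beige fat, 5 could be tested and 1 rose, Ppargc1a (1.21, SE 0.39, adjusted p = 0.0418), a coactivator of mitochondrial genes that muscle also expresses. This call was lost in 7 of the 10 fits that left out 1 library. In unloaded tibiae the median of the 5 was -1.41 and Ppargc1a had a fitted -1.41 (SE 0.48), with means of 13.8 ± 8.60 CPM (SD, n = 5) with vehicle and 4.55 ± 2.30 CPM (SD, n = 5) with DEX. Summed muscle markers, given with the makeup of the libraries, differed between the same groups. Ucp1, Cidea and Elovl3, which mark brown fat, had group means of at most 0.385 CPM and were filtered out. Of 7 genes known to be induced by glucocorticoids, Fkbp5 (0.87, SE 0.17, adjusted p = 0.00777) and Zbtb16 (1.01, SE 0.21, adjusted p = 0.00930) rose in loaded tibiae, and Tsc22d3 (0.10), Klf9 (0.16), Dusp1 (-0.09), Sgk1 (-0.01) and Per1 (-0.56) did not pass the threshold. In unloaded tibiae 6 of the 7 had a lower fitted level with DEX, with a median of -0.23. Fkbp5 was the 1 with a higher level (0.81), at means of 70.3 ± 22.8 CPM (SD, n = 5) with vehicle and 132 ± 36.6 CPM (SD, n = 5) with DEX.

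**Figure D4:**
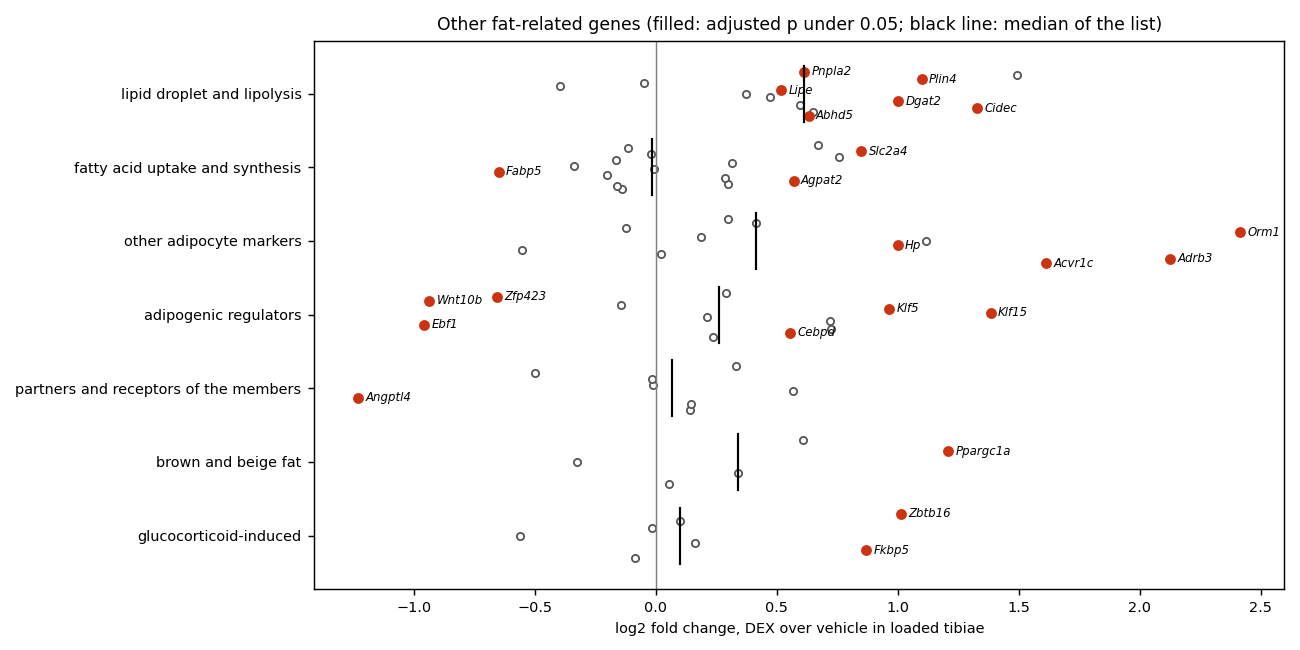
Log2 fold change with DEX in loaded tibiae (horizontal axis) of the genes in 7 lists. Points are genes, filled red where the adjusted p was below 0.05, and black lines are list medians. The lipid droplet and lipolysis list has 6 filled points, all to the right of 0 (0.52 to 1.33), and Angptl4 (-1.23) lies farthest to the left.

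The makeup of the libraries also differed between treatments. Summed CPM of 9 adipocyte markers, 5 of which belong to the 10 genes, was 109 to 193 in unloaded vehicle, 86.1 to 246 in loaded vehicle, 163 to 329 in unloaded DEX and 136 to 321 in loaded DEX libraries. All 9 were detected, with Adig the lowest, at group means of 0.196 to 0.427 CPM. Genes of the marrow stromal niche (Cxcl12, Lepr, Kitl, Foxc1, Ebf3, Vcam1 and Grem1) were summed as well. Their sum was 1410 to 2027 CPM in loaded vehicle and 777 to 1767 CPM in loaded DEX libraries. In unloaded libraries it was 1147 to 1676 CPM with vehicle and 1080 to 1981 CPM with DEX. In loaded tibiae 6 of these 7 had a lower and 1 a higher fitted level with DEX, and none was called. Of 8 macrophage and 7 endothelial markers, 2 and 1 fell, beside 8.35% of all genes. Summed CPM of 5 osteoblast markers, all of which fell in loaded tibiae, was 42073 to 63627 in loaded vehicle and 3102 to 15110 in loaded DEX libraries. Summed CPM of 7 neutrophil markers, 6 of which rose, was 3354 to 5063 and 5813 to 14357. Summed CPM of 8 skeletal muscle markers was 3914 to 19578 and 7587 to 21778 in these groups, and it was 8489 to 39428 in unloaded vehicle and 1525 to 17831 in unloaded DEX libraries, so that genes shared with muscle, such as Lpl, Slc2a4 and Ppargc1a, were measured in libraries that differed in muscle content. The part of these cell types in the results above was not tested.

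Reads over genes that bone is not known to use differed as well. Summed CPM over 1965 olfactory and vomeronasal receptor genes was 261 to 932 in loaded vehicle and 1097 to 6494 in loaded DEX libraries, without overlap between the groups. In unloaded tibiae it was 391 to 1364 with vehicle and 800 to 2918 with DEX, with overlap. Per kilobase of exon it came to 0.0439 to 0.157 CPM in loaded vehicle and 0.185 to 1.09 CPM in loaded DEX libraries, while Lep was at 0.775 to 7.52 CPM and Cyp2e1 at 2.31 to 12.6 CPM per kilobase in loaded DEX libraries. The highest background was in loaded DEX replicate 4, which also had the fewest counts, 4641440. Without that library the Cyp2e1 difference was 3.53 (adjusted p = 0.0121, edgeR) and that of Lep 1.84 (adjusted p = 0.0930). With the background level as a covariate, the differences were 2.21 (adjusted p = 0.329) and 1.88 (adjusted p = 0.584), and no gene of the 7 lists was called. The number of calls over all 19780 genes was then 31 (4 higher and 27 lower), beside 4206 without the covariate. Background levels of the loaded groups did not overlap, so this fit cannot reliably tell background and DEX apart.

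**Figure D5:**
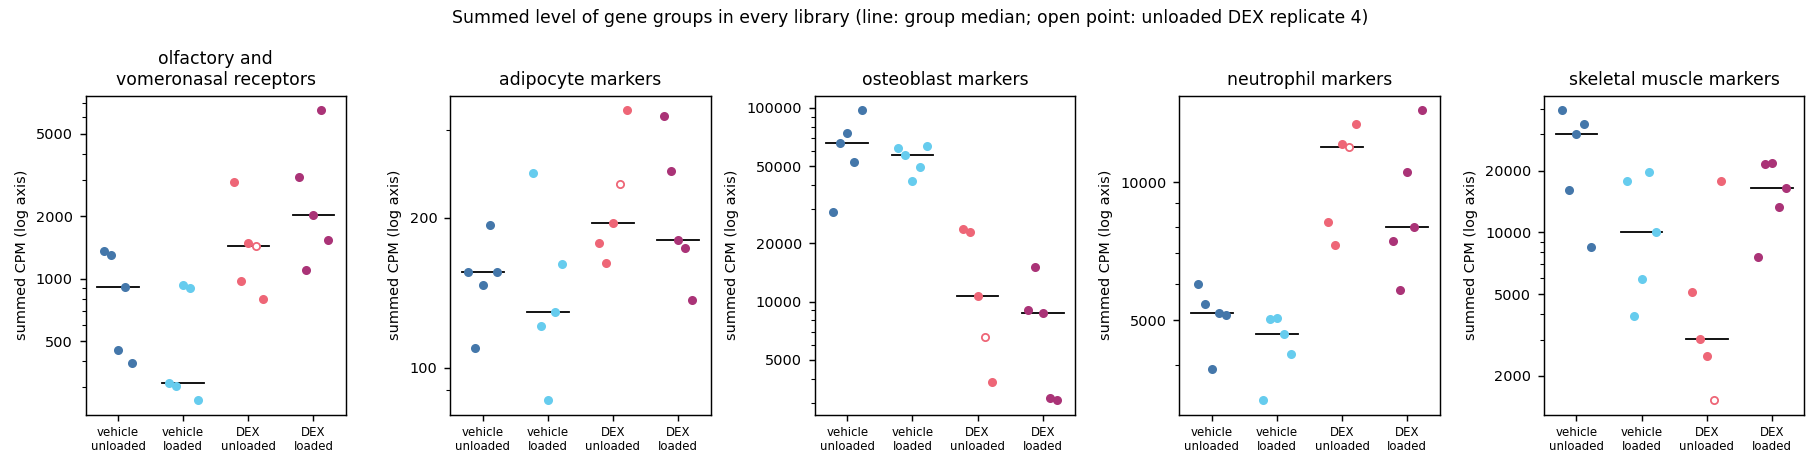
Summed CPM (log axes) of receptor genes not known to be used in bone and of 4 marker lists in every library, by group. Points are libraries, lines are group medians and the open point is unloaded DEX replicate 4. Osteoblast markers lie lower in all loaded DEX libraries (15110 or less) than in all loaded vehicle libraries (42073 or more), and receptor genes lie higher (1097 or more against 932 or less).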

How the data were processed

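RNA-seq was measured in 20 tibia libraries. The authors deposited RSEM expected counts per gene, unscaled and made per the labels with STAR 2.7.10a and RSEM 1.2.28 on GRCm38 from a stranded total RNA kit. They were rounded, since 10.58% to 13.97% of values per library had a fractional part. Totals ran from 4641440 to 13032000 counts. No interval for counting error is given because the spread between libraries was larger (chi-square per gene between replicates 8.82 to 113).

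Tests used edgeR 4.0.16 in R 4.3.3: filterByExpr, TMM, the quasi-likelihood F test without robust estimation, and Benjamini-Hochberg adjustment over all genes tested, with a threshold of 0.05. The SE is the absolute log2 fold change divided by the square root of F. CPM levels use TMM over the 22659 genes kept in all 20 libraries. Alternatives were DESeq2 1.42.0 (Wald test and size factors), other filters, a replicate block, all 4 groups in 1 model, all libraries, a background covariate and each library left out. Library totals without TMM, and the libraries of the block fit without the block, were chosen after seeing the data. The tests were tested on simulated data. All 10 genes are named, and in each list of other genes the most abundant 4 at most and any fat gene past the threshold. The 10 genes and all lists were chosen with earlier results of these data known. Gene positions come from GENCODE M21; 54409 of 54446 identifiers matched it without their version.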

Additional observations from a re-analysis of the deposited data

Results flagged for a closer look

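In 40 groups of libraries (10 genes in 4 groups), 2 values stood apart from the rest of their group by Dixon's criterion, which chance meets in about 1 of 20 groups. Lep was at 9.39 CPM in loaded vehicle replicate 1 and at 1.03 to 2.67 CPM in the other 4 libraries of that group. Cyp2e1 was at 4.27 CPM in loaded vehicle replicate 5 and at 0.259 to 0.638 CPM in the other 4. The 2 values come from different libraries, and loaded vehicle replicate 1 was also the highest of its group for Adipoq (48.8 CPM), whereas replicate 5 (29.4 CPM) was not. What sets these libraries apart was not tested.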

How the results depend on the processing

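Cyp2e1 kept its call with DEX in loaded tibiae in 7 of 8 alternatives and Lep in 5 of 8, besides the replicate block and the fits that left out 1 library; both were filtered out where 10 counts were required in every library, which leaves 7 of the 10 genes and 0 calls. The count of called genes, 2 in the main result, was 3 without a filter (Adipoq lower, -0.82, adjusted p = 0.0349), 0 with background reads as a covariate, 1 without loaded DEX replicate 4 and 1 to 2 when leaving out 1 library. For loading in vehicle, loading in DEX and the interaction, none of the 8 genes tested was called in any fit that left out 1 library. Over all genes, DEX in loaded tibiae gave 4206 calls, 5651 by DESeq2, 9016 without a filter, 2203 with 10 counts in every library, 8446 with all 4 groups in the same model and 31 with the background covariate. Without TMM, the median of all genes moved to 0.28 and the split from 2554 higher and 1652 lower to 4124 and 718. DESeq2 called 141 genes with loading in vehicle, 0 with loading in DEX and 50 for the interaction, none of them among those of the 10 genes that were tested, and 1 with loading in vehicle among their partners and receptors.

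Same-numbered limbs did not deviate together in every pair (r -0.19 to 0.15 with vehicle and 0.01 to 0.40 with DEX), so numbers were used only as a replicate block. Between treatments a shared number ties different mice. With the block, 2 genes were called with DEX in loaded tibiae, Lep (2.40, adjusted p = 0.00972) and Cyp2e1 (3.62, adjusted p = 0.0174), and 2326 of all genes; the libraries of that fit without the block gave 1 called gene (Cyp2e1) and 1120. Loading in vehicle, loading in DEX and the interaction gave 0 calls with the block. With loading in vehicle it turned Lep (-0.17) and Pparg (-0.0102; -0.0102 in those libraries without the block), and with loading in DEX Fabp4 (0.0232; 0.0177 without the block) and Retn (-0.12).

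The other turns of sign concern log2 fold changes that passed no threshold; their causes were not tested. In loaded tibiae with DEX, they were Plin1 (-0.17) and Cebpa (-0.0928) without a filter, Fabp4 (0.0419) with 10 counts in every library, Plin1 (-0.0454) in the model of all 4 groups, Fabp4 (0.0760) without loaded DEX replicate 4, Fabp4 (0.52) and Retn (-0.15) with the covariate, and Fabp4 (0.21), Pparg (0.0905) and Lpl (0.14) without TMM. With loading in vehicle, they were Lep (-0.0548) and Plin1 (-0.26) with the covariate, and Adipoq (0.0013) and Cfd (0.0056) without TMM. With loading in DEX, they were Lpl with DESeq2 (-0.0127), its size factors (-0.0127) and no filter (-0.0776), Retn (-0.0237) without a filter, Retn (-0.0364) without loaded DEX replicate 4, Fabp4 (0.0488) and Retn (-0.33) with the covariate, and Lep (0.0587) without TMM. For the interaction, it was Plin1 (0.0852) with the covariate. With DEX in unloaded tibiae, described without a test, 3 genes turned over the alternatives, the block included. Their ranges were -0.30 to 0.0565 for Adipoq, -0.19 to 0.22 for Pparg and -0.29 to 0.57 for Retn.

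Leaving out 1 library also turned signs. With loading in vehicle the ranges were -0.0861 to 0.17 for Pparg, -0.24 to 0.0708 for Adipoq, -0.34 to 0.20 for Cfd, -0.60 to 0.60 for Lep, -0.0383 to 0.37 for Plin1 and -0.00833 to 0.33 for Fabp4. With loading in DEX they were -0.11 to 0.22 for Lpl, -0.44 to 0.40 for Retn, -0.28 to 0.0407 for Fabp4, -0.36 to 0.0339 for Pparg and -0.53 to 0.17 for Lep. With DEX in loaded tibiae they were -0.19 to 0.23 for Plin1, -0.22 to 0.47 for Cfd, -0.23 to 0.13 for Fabp4 and -0.0788 to 0.17 for Cebpa, and for the interaction -0.40 to 0.0018 for Pparg and -0.92 to 0.47 for Lep. With DEX in unloaded tibiae they were -0.175 to 0.0723 for Pparg and -0.0259 to 0.66 for Retn. The median of the 10 genes in unloaded tibiae stayed between 0.12 and 0.63.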
